A study of Mus musculus with 2 samples.

Results

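Hedgehog signalling and the adrenal capsule are described here through 9 genes, listed by name. They are the ligand Shh, the receptor Ptch1, the ligand-binding inhibitor Hhip, the signal transducer Smo, the transcription factors Gli1, Gli2 and Gli3, and the capsule transcription factors Nr2f2 and Tcf21. All 9 were found among the 55536 GENCODE M21 genes of the gene tables. The source was adrenal gland tissue of 2 adult B6CASTF1/J females (8 to 10 months old), whose total RNA was sequenced; this strain carries 1 C57BL/6J and 1 wild-derived CAST genome. How reads from CAST alleles were treated in the counting against mm10 is not stated in any source used here. Each library was made from 300 ng of RNA with ERCC spike-in RNA added. Animal number 1 gave replicate 1 and animal number 3 gave replicate 2. The 2 form 1 group, for which the labels give no treatment, so the data describe levels in this tissue and the distance between the animals.

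In the Hedgehog pathway a secreted ligand binds Patched, which otherwise holds Smoothened inactive, and active Smoothened changes GLI proteins at the primary cilium from repressors into activators. Gli1, Ptch1 and Hhip are themselves targets of the pathway, so their RNA is widely read as a sign that a cell receives the signal. In the mouse adrenal, Shh is made by cells of the outer cortex and received by mesenchymal cells of the overlying capsule, some of whose descendants can enter the cortex. Nr2f2 and Tcf21 are transcription factors of capsular mesenchyme, and in other organs of fibroblasts and related stromal cells. Which cells of this bulk tissue held their RNA was not tested, so their levels are not levels of the capsule.

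Depth was 40453707 expected counts, the estimated reads per gene, in replicate 1 and 34319787 in replicate 2, and 3 counts corresponded to 0.0742 CPM in replicate 1 and 0.0874 CPM in replicate 2. The tissue label was checked against marker lists. Cyp11b1, the corticosterone-making enzyme of the zona fasciculata, stood at 3079 TPM in replicate 1 against 3727 TPM in replicate 2, and Chga of chromaffin cells at 774 TPM in replicate 1 against 752 TPM in replicate 2. The kidney markers Umod, Slc34a1, Slc12a1 and Kap were listed at 0 in both libraries and Aqp2 stood at 0.45 TPM in replicate 1 against 0.44 TPM in replicate 2. All 12 capsule and fibroblast markers reached 1 TPM in both animals. The 10 adipocyte markers were also present, with a summed level of 1607 TPM in replicate 1 and 828 TPM in replicate 2. In such bulk tissue fewer cells of a type and less RNA per cell cannot be told apart.

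All 9 genes were detected in both animals, and 8 of the 9 reached 1 TPM, a length-corrected share of all transcripts, in both. The exception was Gli2. Among nuclear protein-coding genes that level was reached in both animals by 54.5%. The mean levels over the 2 animals (SD, n = 2) spanned from 36.8 ± 0.573 TPM for Nr2f2 to 0.51 ± 0.0849 TPM for Gli2. Between them lay Ptch1 at 23.9 ± 1.57 TPM, Smo at 16.2 ± 0.403 TPM, Tcf21 at 8.605 ± 2.28 TPM and Shh at 5.355 ± 0.0919 TPM. Lower still were Gli3 at 2.46 ± 0.863 TPM, Hhip at 2.40 ± 0.990 TPM and Gli1 at 1.485 ± 0.0636 TPM. The order was the same in both libraries for 7 of the 9 genes, and only Gli3 and Hhip changed places. For the first 5 genes the higher neighbour exceeded the lower one in every library, with all transcripts counted. Ptch1 fell below Smo when only complete coding transcripts were counted. Gli3 and Hhip could not be ordered, since their values overlapped. The deposited TPM intervals, which cover estimation error inside a library, did not overlap between Hhip and Gli1 in replicate 1 and overlapped in replicate 2. A second set of transcript tables was made from a transcript index instead of alignments (index-based). In these Hhip was above Gli1 in replicate 1 and below it in replicate 2.

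**Figure D1:**
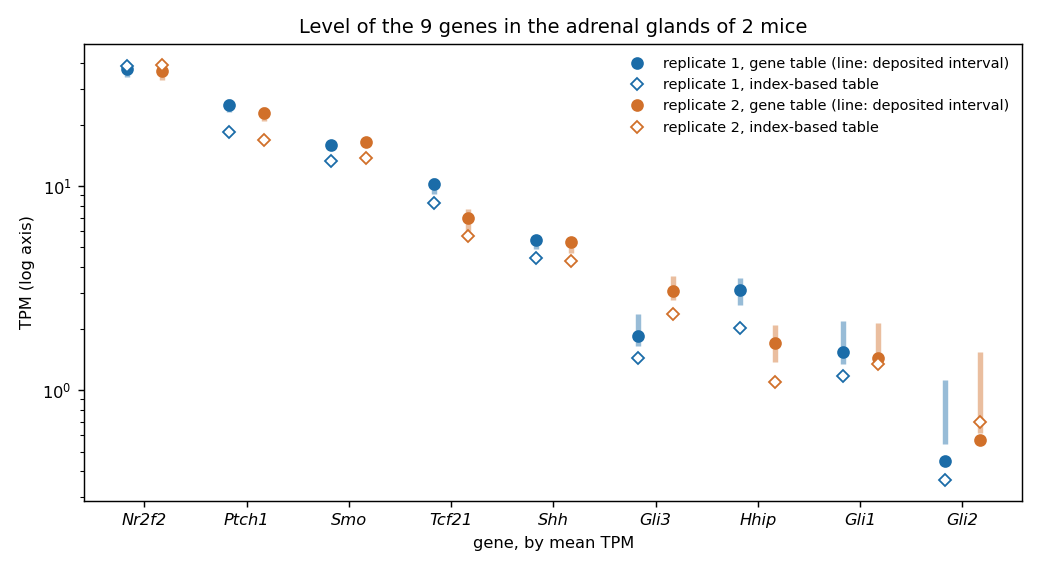
TPM of the 9 genes on a log axis, genes ordered from the highest mean on the left to the lowest on the right. Filled circles are the gene tables with the deposited interval as a vertical line and open diamonds the sums of the index-based transcript tables, with replicate 1 to the left of replicate 2. Levels run from 37.25 TPM for Nr2f2 to 0.45 TPM for Gli2 in replicate 1, and Hhip, Tcf21 and Gli3 are the genes whose intervals do not overlap between the animals.

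Shh, the only Hedgehog ligand at more than 1 TPM, had 579 counts and 5.42 TPM in replicate 1, against 480 counts and 5.29 TPM in replicate 2. The 2 values lay within each other's deposited intervals, which ran from 4.90 to 5.76 TPM in replicate 1 and from 4.72 to 5.65 TPM in replicate 2. It lies on chr5:28456815-28467256 (minus strand, mm10, ENSMUSG00000002633.4) and has 1 annotated transcript of 3 exons and 1311 coding bases. Its level placed it above 60.9% of nuclear protein-coding genes in replicate 1 and above 59.5% in replicate 2. Dhh, the ligand known from Schwann cells and the gonads, had 83 counts and 0.63 TPM in replicate 1, against 87.15 counts and 0.65 TPM in replicate 2. Ihh, the ligand of growing cartilage and gut epithelium, had 6 counts in replicate 1 and 1 in replicate 2, at 0.07 TPM in replicate 1 against 0.01 TPM in replicate 2. Ihh was thus near the limit of detection in both animals. On the opposite strand of Shh the annotation places the lincRNA Gm26894, with 12 counts in each library, and the antisense RNA 9530036O11Rik, with 8 counts in replicate 1 and 0 in replicate 2. These are small beside the counts of Shh. The library kit named in the labels is directional, but no source used here states whether strand entered the counting.

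Genes that act in ligand release were present as well. Disp2, a relative of the releasing transporter Disp1, stood at 15.04 TPM in replicate 1 against 15.6 TPM in replicate 2. Disp1 itself stood at 5.12 TPM in replicate 1 against 7.13 TPM in replicate 2, and Scube3, a secreted protein of the family that carries released ligand, at 4.16 TPM in replicate 1 against 6.60 TPM in replicate 2. Disp1 and Scube3 were lower in replicate 1, with deposited intervals that did not overlap, and the intervals of Disp2 overlapped. Of the 8 genes for ligands and their release, 7 had a mean count of 10 or more, of which 1 was higher in replicate 1 and 6 were higher in replicate 2. The median log2 ratio of replicate 1 over replicate 2 was -0.51. It ran from -0.56 to -0.47 over 6 settings, which vary the scaling, the constant added or the kind of table. No gene of this list was called different, which asks for 2-fold in counts scaled by TMM factors, a mean count of 100 and separate intervals, and which 1.19% of genes with that count met.

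Ptch1, the receptor and a target of the pathway, was the second most abundant of the 9 genes by the TPM of all its transcripts. It had 4287 counts and 25.0 TPM in replicate 1, against 3433 counts and 22.8 TPM in replicate 2, and the intervals of 23.1 to 26.5 TPM in replicate 1 and 20.9 to 24.5 TPM in replicate 2 overlapped. It lies on chr13:63508328-63573598 (minus strand, ENSMUSG00000021466.12). The ratio of Ptch1 to Shh in TPM was 4.61 in replicate 1 and 4.31 in replicate 2, or 4.46 ± 0.217 (SD, n = 2). In the index-based tables the same ratio was 4.17 in replicate 1 and 3.92 in replicate 2. Receptor RNA thus exceeded ligand RNA per length in each library and in both kinds of table.

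The gene has 10 annotated transcripts, and the choice of its start changes the coding sequence. Ptch1-201 has 4302 coding bases with the start codon in exon 1. Ptch1-202 begins 1200 bases further along the gene from an exon of its own, has its start codon in exon 3 and 3891 coding bases, and shares 21 exons with Ptch1-201. Its start codon lies in the reading frame of Ptch1-201, after 411 coding bases or 137 codons of that transcript. Ptch1-207 uses the same start codon as Ptch1-202, but its model of 809 bases ends before the coding sequence does. The first line below gives the junction of exons 1 and 2 of Ptch1-201, with the coding bases of exon 1 in capitals (chr13:63565362-63565406) and of exon 2 in lower case (chr13:63563771-63563815). The second gives the first coding bases of Ptch1-202 (chr13:63548037-63548126) with the start codon in capitals. Both are from GENCODE M21 (mm10), read on the minus strand. The start codon in the second line also lies inside Ptch1-201, so this line shows only where coding begins in Ptch1-202. The first exon of Ptch1-202, which is its own, is not printed.
Ptch1-201: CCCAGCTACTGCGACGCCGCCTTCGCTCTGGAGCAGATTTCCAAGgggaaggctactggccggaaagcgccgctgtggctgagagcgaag
Ptch1-202: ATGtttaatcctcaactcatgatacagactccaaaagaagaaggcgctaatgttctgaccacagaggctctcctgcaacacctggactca

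Both kinds of transcript received counts, in proportions that were close between the animals in the alignment-based tables. Reads from the exons they share cannot tell them apart, so the split is an estimate. Ptch1-202 held 54.7% of the gene's expected counts in replicate 1 and 54.5% in replicate 2. Ptch1-201 held 35.0% in replicate 1 and 34.1% in replicate 2. The index-based tables gave Ptch1-202 46.8% in replicate 1 and 53.2% in replicate 2, and Ptch1-201 42.2% in replicate 1 and 34.4% in replicate 2. In every library and table Ptch1-202 held the largest share of counts. In TPM, which divides by length, the picture was different, since Ptch1-207 with 6.40% of the counts in replicate 1 and 5.60% in replicate 2 held 39.8% of the TPM in replicate 1 and 36.0% in replicate 2. Leaving out all but the 2 complete coding transcripts moved the level of Ptch1 to 13.3 TPM as the mean of the 2 animals. That was below Smo, at 15.5 TPM when treated alike. The level of Ptch1 in TPM, and its rank, therefore depend on a short, incomplete model, while its count does not.

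The RefSeq promoter window of Ptch1 (GRCm38.p6) is set on the first base of Ptch1-201, not of Ptch1-202. The 250 bases before that start and the start itself, in capitals, are given here for the minus strand of chr13:63565735-63565985, since Ptch1 is the classical direct GLI target among the 9 genes.
Ptch1 promoter: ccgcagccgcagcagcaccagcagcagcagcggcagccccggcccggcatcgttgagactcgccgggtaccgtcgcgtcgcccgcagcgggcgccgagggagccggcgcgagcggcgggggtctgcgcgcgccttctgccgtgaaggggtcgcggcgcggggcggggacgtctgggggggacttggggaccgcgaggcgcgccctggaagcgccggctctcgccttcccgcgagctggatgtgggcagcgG
Of the 9 genes 7 had such a window, 250 bases before to 50 bases after the start, and Shh and Gli1 had none. For Nr2f2, Smo, Gli3 and Tcf21 the window lies nearest the start of a transcript other than the one with most counts. The GLI consensus TGGGTGGTC, searched on both strands as it stands and as GACCACCCA, was in 0 of these 7 windows and in 83 of all 32851 windows, or 0.253%. With so low a share, 0 is what most sets of 7 windows would give. These letters are not in the windows of the 7 genes, which is a description of 300 bases each and says nothing of GLI binding.

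Co-receptors that help Patched bind its ligand were also present. Boc stood at 30.65 TPM in replicate 1 against 26.0 TPM in replicate 2, above Ptch1 in both libraries. Gas1 stood at 14.2 TPM in replicate 1 against 12.4 TPM in replicate 2. Boc and Gas1 were higher in replicate 1 with intervals that did not overlap, at a log2 ratio of 0.33 for Boc and 0.29 for Gas1. Evc2, which acts with Smo at the base of the cilium, stood at 7.37 TPM in replicate 1 against 7.09 TPM in replicate 2. Of the 8 genes of this list, 6 reached 1 TPM in both animals and 8 had a log2 ratio above 0, with a median of 0.15. Over the same 6 settings as for the ligand list the number above 0 ran from 5 to 8.

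Hhip, a membrane-bound decoy that takes up Hedgehog ligands and is itself a target of the pathway, stood further apart between the animals than Ptch1, whose log2 ratio of replicate 1 over replicate 2 was 0.18. It had 727 counts and 3.10 TPM in replicate 1, against 387 counts and 1.70 TPM in replicate 2. The intervals of 2.62 to 3.55 TPM in replicate 1 and 1.38 to 2.08 TPM in replicate 2 did not overlap. The log2 ratio of replicate 1 over replicate 2 was 0.76, or 1.70-fold, below the 2-fold limit. Hhip lies on chr8:79965851-80058006 (minus strand, ENSMUSG00000064325.4). Its coding transcript Hhip-201 stood at 1.94 TPM in replicate 1 against 1.25 TPM in replicate 2, with 93.3% of the counts in replicate 1 and 95.9% in replicate 2. The noncoding Hhip-202 of 1173 bases made up the rest, at 1.16 TPM in replicate 1 against 0.45 TPM in replicate 2. Both transcripts were thus higher in replicate 1. The ratio of Ptch1 to Hhip in TPM was 8.07 in replicate 1 and 13.4 in replicate 2, so the 2 targets of the pathway did not differ between the animals in the same proportion.

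Smo, the membrane protein that passes the signal on, had 2247 counts and 15.9 TPM in replicate 1, against 1974 counts and 16.5 TPM in replicate 2. The intervals overlapped and the log2 ratio was 0.04. It lies on chr6:29735503-29761365 (plus strand, ENSMUSG00000001761.7), and Smo-201 held 97.2% of the counts in replicate 1 and 96.9% in replicate 2. A retained-intron transcript held the rest. The pseudogene Gm13717 on the same strand had 0 counts in replicate 1 and 6 in replicate 2.

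Downstream of Smo, the general kinases and adaptors were abundant. Prkaca, a catalytic subunit of protein kinase A that phosphorylates GLI proteins and also serves the ACTH response, stood at 90.7 TPM in replicate 1 against 85.65 TPM in replicate 2. Csnk1a1, a casein kinase acting on the same proteins, stood at 77.0 TPM in replicate 1 against 83.5 TPM in replicate 2, and Spop, an adaptor for GLI degradation, at 55.3 TPM in replicate 1 against 56.3 TPM in replicate 2. These genes act in many pathways. Of the 9 transduction genes 8 reached 1 TPM in both animals, and the exception was the ciliary kinesin Kif7, named after its values were seen, at 0.95 TPM in replicate 1 against 1.08 TPM in replicate 2. All 6 cilium genes reached 1 TPM, led by Tulp3 at 18.7 TPM in replicate 1 against 20.3 TPM in replicate 2, Ift172 at 13.1 TPM in replicate 1 against 15.8 TPM in replicate 2, and Kif3a at 10.4 TPM in replicate 1 against 13.7 TPM in replicate 2. The median log2 ratios were -0.02 for transduction and -0.07 for the cilium. No gene of either list was called different, against 1.19% of the 12645 genes with a mean count of 100 or more. For lists this short, 0 lies near that share.

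The 3 GLI genes were all low. Gli3, mostly a repressor when no ligand is present, was the highest, though its interval overlapped that of Gli1 in replicate 1. It had 442 counts and 1.85 TPM in replicate 1, against 627 counts and 3.07 TPM in replicate 2. Its intervals of 1.65 to 2.37 TPM in replicate 1 and 2.76 to 3.61 TPM in replicate 2 did not overlap, and the log2 ratio was -0.65, which is 1.57-fold higher in replicate 2. Gli3 was the only one of the 9 genes with separate intervals that was lower in replicate 1. It lies on chr13:15463235-15730026 (plus strand, ENSMUSG00000021318.15). The full-length Gli3-201 stood at 1.25 TPM in replicate 1 against 2.05 TPM in replicate 2, and the retained-intron transcript Gli3-203 at 0.18 TPM in replicate 1 against 0.51 TPM in replicate 2. The lower level in replicate 1 was thus seen in the coding transcript as well. The retained-intron share of the counts was 4.58% in replicate 1 and 7.63% in replicate 2.

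Gli1, an activator made in cells that receive the signal, had 182 counts and 1.53 TPM in replicate 1, against 166 counts and 1.44 TPM in replicate 2. The intervals, 1.35 to 2.17 TPM in replicate 1 and 1.32 to 2.12 TPM in replicate 2, nearly coincided. Its log2 ratio of -0.01 was the smallest of the 9 in size on scaled counts, though not on deposited TPM, and its sign changed with the scaling. Gli1 lies on chr10:127329882-127341974 (minus strand, ENSMUSG00000025407.7) and shares 62 bases of its end with Arhgap9 on the opposite strand, which had 77 counts in replicate 1 and 69 in replicate 2. Reads from those bases cannot be told apart without strand. Gli1-201, the complete coding transcript, held 92.9% of the counts in replicate 1 and 96.7% in replicate 2. The ratio of Ptch1 to Gli1 was 16.3 in replicate 1 and 15.8 in replicate 2, and in the index-based tables it was 15.7 in replicate 1 and 12.5 in replicate 2.

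Gli2, known as the main activator at the start of a response, was the lowest of the 9 genes. It had 115 counts and 0.45 TPM in replicate 1, against 93 counts and 0.57 TPM in replicate 2. The count was higher in replicate 1 and the TPM was lower there, and both differences were small. Its deposited intervals, 0.546 to 1.13 TPM in replicate 1 and 0.615 to 1.53 TPM in replicate 2, lay above its own TPM in both libraries, so they cannot be read as an error of that value. The gene lies on chr1:118834132-119053619 (minus strand, ENSMUSG00000048402.14) and has 9 annotated transcripts. Gli2-201 held 100% of the counts in replicate 1 and 98.6% in replicate 2. In the index-based table of replicate 2, the noncoding Gli2-202 of 367 bases held 47.6% of the gene's TPM from an estimated count of 1.90. Gli2-201 alone stood at 0.45 TPM in replicate 1 against 0.42 TPM in replicate 2. The TPM ratio of Gli3 to Gli2 was 4.11 in replicate 1 and 5.39 in replicate 2, but 3.98 in replicate 1 and 3.40 in replicate 2 in the index-based tables, so which animal had the higher ratio depends on the table. The ratio of Gli3 to Gli1 was 1.21 in replicate 1 and 2.13 in replicate 2.

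Among other genes known as Hedgehog targets in one tissue or another, the cyclins were the most abundant. Ccnd2 stood at 197 TPM in replicate 1 against 188 TPM in replicate 2, and Ccnd1 at 68.3 TPM in replicate 1 against 62.25 TPM in replicate 2, and many other signals act on both. Bcl2, an inhibitor of apoptosis, had 655 counts and 2.47 TPM in replicate 1, against 314 counts and 1.61 TPM in replicate 2. At 1.89-fold in scaled counts it was the only one of the 38 other pathway genes past 1.5-fold in that measure with separate intervals. In deposited TPM Scube1 stood further apart, at 2.08 TPM in replicate 1 against 3.96 TPM in replicate 2, also with separate intervals. Mycn stood at 2.40 TPM in replicate 1 against 2.18 TPM in replicate 2. The forkhead genes Foxf1, Foxf2 and Foxl1, targets in gut mesenchyme that are named here after their values were seen, were at or below 0.17 TPM in both animals. Over the 5 lists 29 of 38 genes reached 1 TPM in both animals. A mean count of 10 was reached by 35, of which 20 were higher in replicate 1 and 15 in replicate 2, with a median log2 ratio of 0.03.

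**Figure D2:**
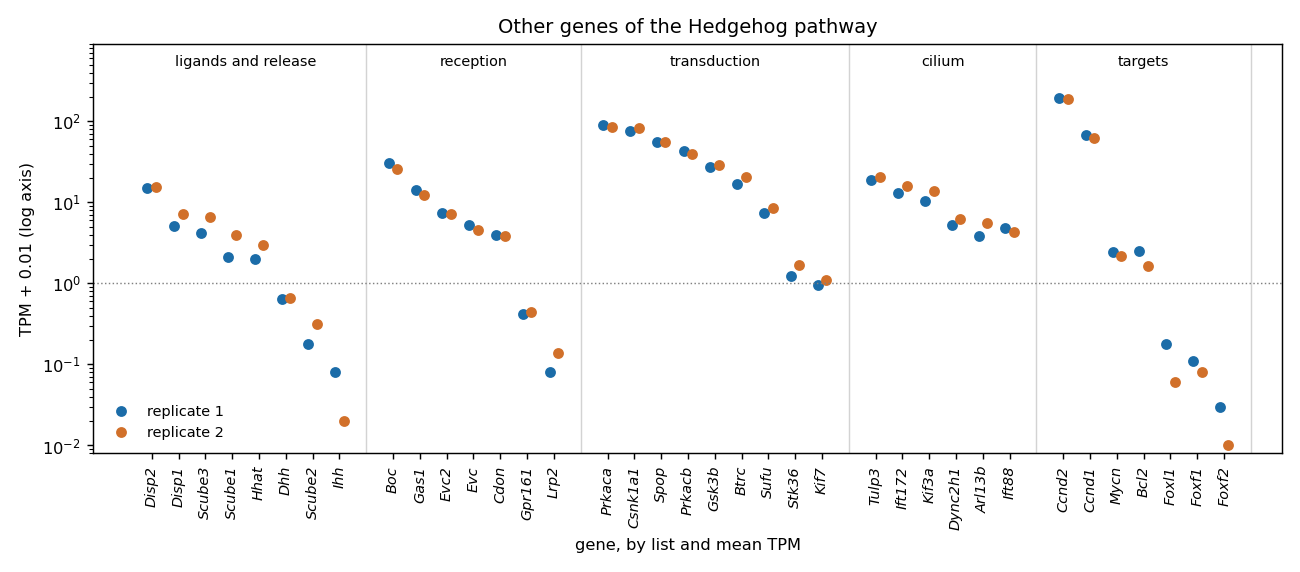
TPM plus 0.01 on a log axis for 37 of the 38 other genes of the pathway, in 5 lists from ligands on the left to targets on the right and by mean TPM within a list. Each gene has a point for replicate 1 and, to its right, one for replicate 2, and the dotted line marks 1 TPM. Disp2, Boc, Prkaca, Tulp3 and Ccnd2 lead their lists, and Ihh and the forkhead genes lie near the bottom.

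Nr2f2 (COUP-TFII), an orphan nuclear receptor, was the most abundant of the 9 genes. It had 3740 counts and 37.25 TPM in replicate 1, against 2818 counts and 36.4 TPM in replicate 2, with intervals of 34.2 to 39.1 TPM in replicate 1 and 33.2 to 38.6 TPM in replicate 2. The values in TPM were nearly equal. The log2 ratio of scaled counts was 0.26, against 0.03 for TPM as deposited. The gene lies on chr7:70351944-70366735 (minus strand, ENSMUSG00000030551.14) and stood above 91.5% of nuclear protein-coding genes in replicate 1 and 90.8% in replicate 2. On the opposite strand B130024G19Rik overlaps 1826 bases of it and had 150 counts in replicate 1 and 104 in replicate 2. Of its paralogues, which were added after the values had been seen, Nr2f6 stood at 20.9 TPM in replicate 1 against 21.7 TPM in replicate 2, and Nr2f1 at 7.86 TPM in replicate 1 against 5.71 TPM in replicate 2.

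Transcripts of Nr2f2 differ in whether they carry the first exon that codes for the DNA-binding domain. Nr2f2-201 has 442 coding bases in that exon. Nr2f2-202 starts 6142 bases upstream and replaces them with 43 coding bases, then goes on in the same frame at exon 2. Nr2f2-204 is a model of 636 bases whose start codon lies in frame, 153 codons into Nr2f2-201, and which ends before the coding sequence does. The lines below show the junctions of exons 1 and 2, with exon 1 in capitals and exon 2 in lower case, and the first coding bases of Nr2f2-204, with its start codon in capitals. The capitals of Nr2f2-201 are from chr7:70359888-70359932, those of Nr2f2-202 from chr7:70366093-70366135, and exon 2 in both from chr7:70358246-70358290. The stretch of Nr2f2-204 is from chr7:70358184-70358273. All are from GENCODE M21 (mm10), minus strand.
Nr2f2-201: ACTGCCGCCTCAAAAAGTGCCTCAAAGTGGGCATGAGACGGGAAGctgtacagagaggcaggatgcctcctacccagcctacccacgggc
Nr2f2-202: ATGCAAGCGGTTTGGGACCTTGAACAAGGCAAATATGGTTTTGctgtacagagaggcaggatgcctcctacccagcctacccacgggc
Nr2f2-204: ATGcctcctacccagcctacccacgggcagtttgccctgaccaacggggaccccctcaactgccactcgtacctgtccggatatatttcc

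Nr2f2-201 held 72.9% of the gene's counts in replicate 1 and 67.0% in replicate 2, and it was the leading transcript by count in both kinds of table. Nr2f2-202 held 15.6% in replicate 1 and 12.9% in replicate 2. Its first exon lies within the bases overlapped by B130024G19Rik, where reads cannot be told apart without strand. Nr2f2-201 stood at 17.0 TPM in replicate 1 against 13.85 TPM in replicate 2. The level of Nr2f2-202 was 9.59 TPM in replicate 1 and 7.05 TPM in replicate 2, and that of Nr2f2-204 was 6.75 TPM in replicate 1 and 9.31 TPM in replicate 2. The 2 complete coding transcripts were thus higher in replicate 1, and the incomplete one was lower there. The 3 retained-intron transcripts together held 7.73% of the counts in replicate 1 and 14.3% in replicate 2. In the index-based tables they held 12.3% in replicate 1 and 21.9% in replicate 2. The near-equal TPM of the whole gene thus held a different estimated mix of transcripts in each library. As for Ptch1, the split of shared reads is an estimate, and the 2 kinds of table differ in its size. Over the 9 genes, the leading transcript by TPM was the same in both animals and both tables for 6 genes, and by count for 9 genes. The exceptions by TPM were Ptch1, Gli2 and Nr2f2.

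**Figure D3:**
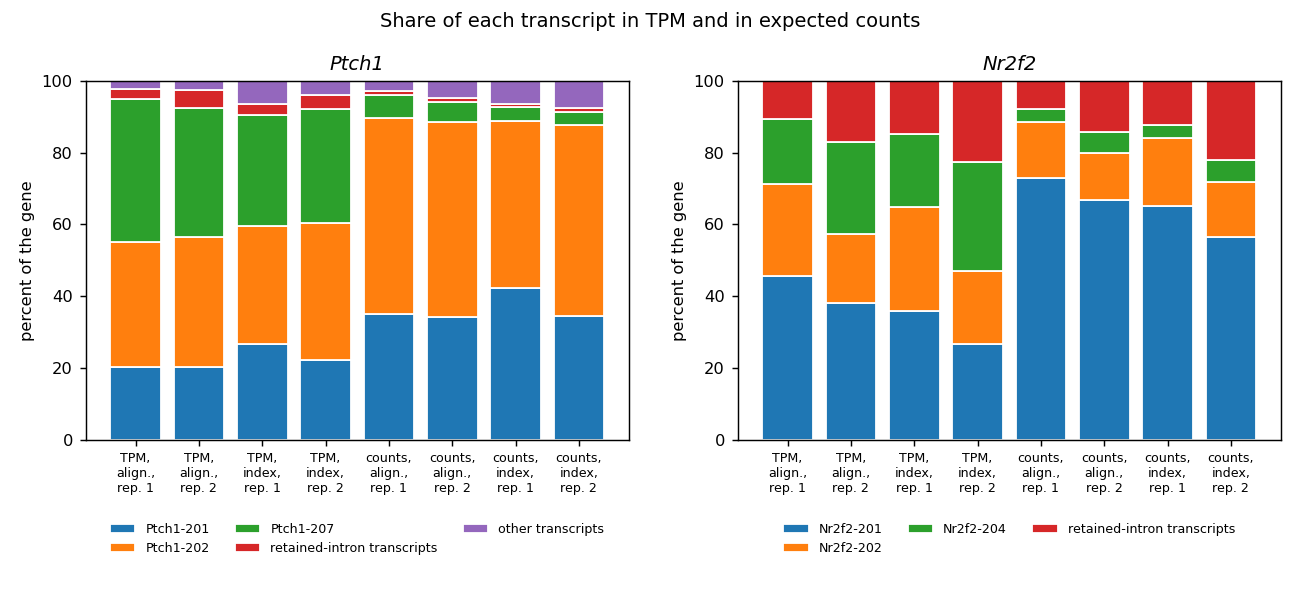
Shares of the transcripts of Ptch1 on the left and Nr2f2 on the right, in percent of the gene. Ptch1-201, Ptch1-202, Ptch1-207, Nr2f2-201, Nr2f2-202 and Nr2f2-204 are drawn singly. Retained-intron transcripts are pooled, as are the other transcripts of Ptch1. The first 4 bars of each panel are shares of TPM and the last 4 shares of expected counts, in the alignment-based and the index-based tables, with replicate 1 to the left of replicate 2 in each pair. Ptch1-207 takes 39.8% of the TPM of Ptch1 in replicate 1 from 6.40% of its counts, and the retained-intron share of Nr2f2 is lower in replicate 1 in each pair of bars.

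Tcf21, a basic helix-loop-helix factor of mesenchyme, had 466 counts and 10.2 TPM in replicate 1, against 272 counts and 6.99 TPM in replicate 2. Its intervals of 9.15 to 11.0 TPM in replicate 1 and 6.05 to 7.69 TPM in replicate 2 did not overlap, and the log2 ratio was 0.63, or 1.55-fold. It lies on chr10:22817281-22820174 (minus strand, ENSMUSG00000045680.8), and Tcf21-201 held 98.7% of the counts in replicate 1 and 97.1% in replicate 2. The antisense RNA Gm10824 spans the whole gene on the other strand, with 4 counts in replicate 1 and 8 in replicate 2. The TPM ratio of Nr2f2 to Tcf21 was 3.64 in replicate 1 and 5.21 in replicate 2. Nr2f2 and Tcf21 therefore did not stand in the same proportion in both animals.

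Markers of the capsule and of fibroblasts went in the same direction as Tcf21, which with 2 libraries shows no link between them. All 12 were higher in replicate 1, with a median log2 ratio of 0.55, against 0.0070 over all 17751 genes with the same count limit, and a summed level of 199 TPM in replicate 1 against 138 TPM in replicate 2. Under deposited TPM 11 of the 12 were higher there. Dcn, a matrix proteoglycan, stood at 72.3 TPM in replicate 1 against 46.7 TPM in replicate 2, and Col1a2, a chain of collagen I, at 25.8 TPM in replicate 1 against 20.45 TPM in replicate 2. Pdgfra, a receptor that marks fibroblasts, stood at 19.2 TPM in replicate 1 against 15.6 TPM in replicate 2. Called different at 2-fold were Nes at 2.18 TPM in replicate 1 against 1.11 TPM in replicate 2, Col3a1 at 20.4 TPM in replicate 1 against 10.9 TPM in replicate 2, and Dpt at 8.86 TPM in replicate 1 against 4.64 TPM in replicate 2. The 8 smooth muscle and pericyte markers were all higher in replicate 1 as well, with a median of 0.72 and summed levels of 85.7 TPM in replicate 1 and 61.2 TPM in replicate 2. The adipocyte list had a median of 1.04, with 10 of 10 higher in replicate 1 on scaled counts and 9 of 10 on deposited TPM. The 4 mesothelial markers had a median of 0.50, with 4 of 4 higher in replicate 1 on scaled counts and 3 of 4 on deposited TPM, and summed levels of 7.37 TPM in replicate 1 and 6.05 TPM in replicate 2. The Schwann cell list had a median of 0.83, with 5 of the 6 genes above the count limit higher in replicate 1 and summed levels of 10.5 TPM in replicate 1 and 6.69 TPM in replicate 2. Of the 6 genes 4 were higher in replicate 1 on deposited TPM. Markers of the zona glomerulosa, below the capsule, had a median of -0.01, with summed levels of 1059 TPM in replicate 1 and 1136 TPM in replicate 2. Medians were 0.11 for endothelial, 0.09 for macrophage, 0.16 for chromaffin and -0.11 for zona fasciculata markers. In that order 8 of 9, 5 of 6, 5 of 5 and 1 of 4 were higher in replicate 1 on scaled counts. On deposited TPM 6 of 9, 3 of 6, 5 of 5 and 1 of 4 were higher there. The part of these differences in the values of Tcf21, Hhip and Gli3 was not tested.

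On scaled counts the 2 animals lay within 1.5-fold for all of the 9 genes except Hhip, Tcf21 and Gli3. With 1 library on each side no p-value was computed, so genes are described by the call rule alone. By this rule 0 of the 9 genes were called, and 1.19% of the 12645 genes with a mean count of 100 or more. With so low a share, 0 of 9 says nothing particular about these genes. At 1.5-fold 3 of the 9 were past the limit, Hhip and Tcf21 higher in replicate 1 and Gli3 lower there, and 5.02% of the same 12645 genes. Their share was 2.58% in the first direction and 2.44% in the second. Intervals did not overlap for 3 of the 9 genes and for 27.4% of these genes. Log2 ratios were above 0 for 7 of the 9 genes and for 51% of all 17751 genes with a mean count of 10 or more. Under other scalings, added constants or tables the number among the 9 ran from 6 to 8. Of the 38 other pathway genes, 30 had a mean count of 100, 0 were called at 2-fold, 1 passed 1.5-fold and 10 had separate intervals. The biological coefficient of variation between the animals was 0.152 over 16966 genes, as estimated with edgeR. The summed level of the 9 genes was 101 TPM in replicate 1 and 94.8 TPM in replicate 2.

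**Figure D4:**
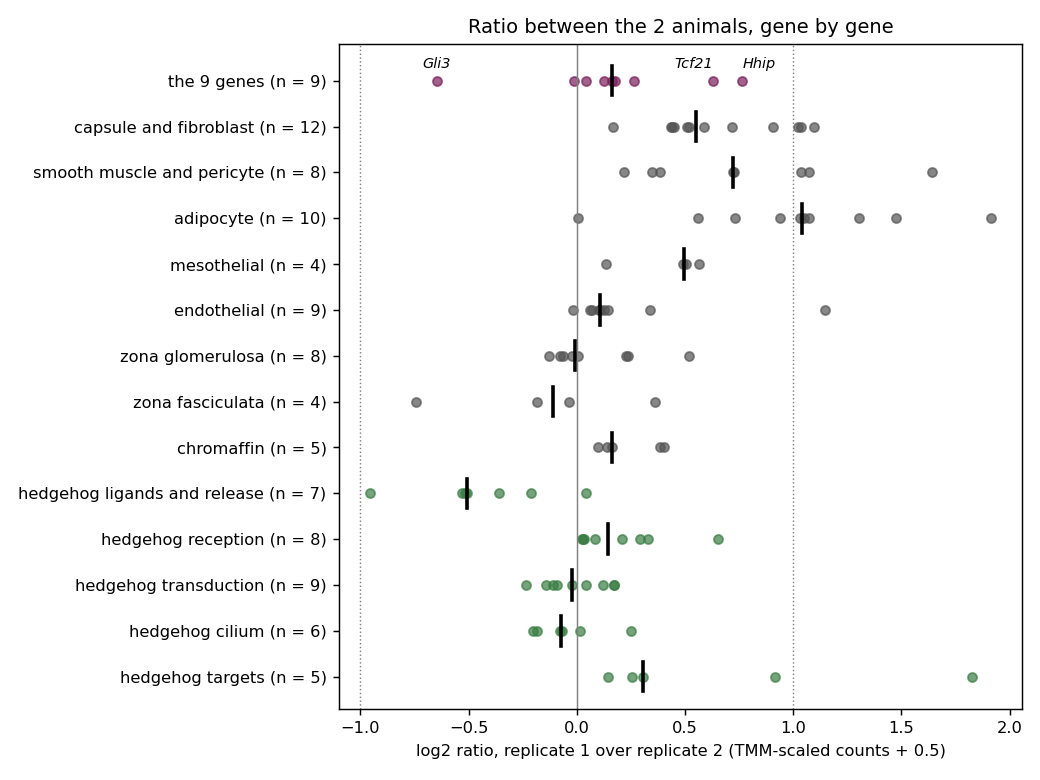
Log2 ratio of replicate 1 over replicate 2 for each gene with a mean count of 10 or more, with the 9 genes in the top row, cell type markers in grey and the other pathway genes in green. Each point is 1 gene, black bars are medians, the grey line is no difference and the dotted lines are 2-fold. The 9 genes run from -0.65 for Gli3 to 0.76 for Hhip, and the medians of the capsule, smooth muscle and adipocyte markers are 0.55, 0.72 and 1.04.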

How the data were processed

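Expected counts, which are not normalized and can be fractional, were deposited per gene and per transcript from an alignment, with TPM scaled over all features and FPKM, per the file headers. The deposited TPM bounds cover estimation error inside a single library, and their level is not stated. A gene's own TPM lay outside its bounds for 2.38% of the 12645 genes with a mean count of 100 or more in replicate 1 and for 2.29% in replicate 2, which limits calls that rest on these bounds. A second transcript table with estimated counts and TPM came from a transcript index, per the notes deposited with the tables. The first kind of table also has a deposited percent column, each transcript's share of its gene. The build was mm10 and the annotation GENCODE M21, and no source used here names the programs. Rows that are no GENCODE gene (26345) held 0.226% of counts in replicate 1 and 0.245% in replicate 2, nearly all on spike-ins, and were left out.

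Animal numbers differ in the labels but the donor code is 1, and the libraries were treated as 2 animals. Counts were scaled with TMM factors (edgeR 4.0.16, R 4.3.3, counts rounded), and ratios are replicate 1 over replicate 2 with 0.5 added. DESeq2 1.42.0 size factors, spike-ins, other limits, other tables and single libraries were tried. Medians of lists use genes with a mean count of 10 or more. The expected counts of all 9 genes were whole numbers. The members, lists and tests were chosen with earlier results of these data known. From each other list the text names the 3 highest genes by mean TPM, genes called different and genes at 0, and always Ihh and Dhh, though some genes that this rule names are not reported here; others are said to be chosen after their values were seen. The ratio step was tested on simulated data. Python 3.11.15, numpy 2.4.6, pandas 2.3.3 and matplotlib 3.10.9 did the rest.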

Additional observations from a re-analysis of the deposited data

How the results depend on the processing

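Of the 9 genes, 5 reached 2 TPM in both animals, against 8 at 1 TPM. With a 1.5-fold limit 3 of the 9 genes, 1 of the other pathway genes and 635 of all genes were past the call rule, against 0, 0 and 151 at 2-fold. With separate intervals and no fold limit, an alternative chosen after seeing the data, the counts were 3, 10 and 3461. A mean count of 10 in place of 100 gave 532 of all genes and left the 9 genes at 0. The other alternatives for these counts, and the 6 for the capsule median (0.45 to 0.59), stayed within 1.5 times of the reported count or within the spread. With 1 library left out, 8 of the 9 genes reached 1 TPM in each, and 29 to 30 of the other pathway genes. The ratios of Hhip, Tcf21 and Gli3 kept their sign under all 5 alternatives. The signs of Gli1, Smo and Gli2 changed with deposited TPM, and that of Gli1 also with DESeq2 size factors, spike-in scaling and the index-based table. Deposited TPM gave a log2 ratio of -0.33 for Gli2. TPM rescaled over nuclear protein-coding genes raised every level by construction, to 103 TPM for Nr2f2. FPKM moved 3 of 9 levels by more than their spread, but it differs from TPM by a single factor per library and does not test the levels. Sums of the index-based transcripts moved 5, and complete coding transcripts alone moved 4. No paired analysis was possible because both libraries belong to 1 group. With 2 animals of 1 group no p-value was computed. Depth limits Gli2 most, which rests on 115 counts in replicate 1 and 93 in replicate 2.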
